A study of Homo sapiens with 6 samples.

Results

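The YAP/TAZ-TEAD pathway was examined in cells of the MDA-MB-436 line, which was derived from a triple-negative breast cancer with mutant BRCA1 and here bore a stably integrated, doxycycline-inducible shRNA against MUC1. The 10 genes were chosen by name as effectors and targets of the pathway (YAP1, WWTR1, TEAD1, TEAD4, LATS1, LATS2, CYR61, CTGF, AMOTL2 and AXL), out of 37887 rows in the table of counts. All 10 were found, CYR61 under its current symbol CCN1 and CTGF under CCN2, and all 10 were among the 15355 genes that passed the filter on low counts. Total RNA was taken from cells cultured in triplicate with 0.1% DMSO (control, n = 3) or 500 ng/ml doxycycline (shMUC1, n = 3). Both groups carried the inducible vector, whereas control samples are titled as control shRNA; the treatment labels and the design text were followed. Doxycycline itself, effects of the shRNA on other genes and silencing of MUC1 cannot be told apart. No library of doxycycline-treated cells lacking the MUC1 shRNA, or of cells with another shRNA against MUC1, was used. The treatment labels name DMSO for control libraries only, so its absence is confounded as well. Nothing in the labels says that the triplicates were separate experiments, so p-values measure the spread between these libraries.

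YAP1 (YAP) and WWTR1 (TAZ) are transcriptional coactivators without a DNA-binding domain of their own, and they reach DNA through the TEAD factors. When the Hippo kinase cascade is active, LATS1 and LATS2 phosphorylate YAP and TAZ, which are then held in the cytoplasm by 14-3-3 proteins or degraded. CCN1, CCN2, AMOTL2, AXL and LATS2 are among the target genes most often used to read the pathway, and YAP/TAZ activity is commonly high in basal-type and triple-negative breast cancer cells. Transcript levels do not report the phosphorylation or location of YAP and TAZ, which were not measured here.

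TEAD factors bind a short motif whose core is GGAATG. This core was searched on both strands in RefSeq promoter windows that run from 250 bases upstream to 50 bases downstream of each gene start (GRCh38.p14). It was in 4928 of 35116 windows. Windows were present for 7 of the 10 genes, and CCN1, TEAD1 and TEAD4 had none in the table. The CCN2 window held 3 copies, at positions -169, -104 and -95 from the start, and the YAP1 window held 1, at -162. LATS2 held 1 copy at +10, while AMOTL2 and AXL held 1 in the window of their downstream start only, and the WWTR1 and LATS1 windows held none. The CCN2 and YAP1 stretches are shown because they carry the core upstream of the start of a pathway target and of a coactivator, with the core in capitals. The CCN2 stretch lies at chr6:131951422-131951581 on the minus strand and the YAP1 stretch at chr11:102110245-102110330 on the plus strand.
CCN2: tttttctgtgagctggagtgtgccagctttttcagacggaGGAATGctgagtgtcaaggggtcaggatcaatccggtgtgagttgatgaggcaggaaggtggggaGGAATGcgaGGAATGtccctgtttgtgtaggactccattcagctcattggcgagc
YAP1: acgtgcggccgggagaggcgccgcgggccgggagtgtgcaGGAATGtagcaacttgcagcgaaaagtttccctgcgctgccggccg
A copy of the core is a match of letters and not evidence of binding. CCN2, with the most copies among the 7 genes, did not pass the test of change between groups. Without control replicate 3 it did (log2 fold change -0.20, edgeR adjusted p = 0.0214). The relation of copies to change was not tested.

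Library totals were 21777449, 24332317 and 25513198 counts in control and 27825546, 26114779 and 18678307 in shMUC1 cells. MUC1, the targeted gene, had 93, 84 and 102 counts in control and 72, 51 and 34 in shMUC1 libraries. It fell by 0.84 on the log2 scale (SE 0.214, edgeR adjusted p = 0.00119), with every shMUC1 library below every control library in CPM (counts scaled to each library's TMM-adjusted total). MUC1 shares 48 exon bases with AL713999.1, an annotated gene on the same strand. ESR1 and PGR, the hormone receptors that the line is defined as lacking, had at most 12 counts in any library. ERBB2, also among the receptors that define triple-negative cells, had 715 to 1142 counts. It fell by 0.20 on the log2 scale in shMUC1 cells (SE 0.0613, edgeR adjusted p = 0.0074). Libraries within a group differed by more than counting noise (a chi-square of 2.79 to 5.55 for each degree of freedom), and no pair looked like 1 library deposited more than once.

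Of the 10 pathway genes, 3 rose (WWTR1, TEAD4 and AMOTL2) and 3 fell (LATS1, CCN1 and AXL) in shMUC1 cells at an adjusted p under 0.05. The largest change was the fall of AXL, and the targets did not move in 1 direction. Over all genes tested, 48.7% passed the same threshold, 25.2% higher and 23.6% lower, so 6 called genes of 10 is close to the share seen in all genes. The median log2 fold change was 0.05 over the 10 genes and 0.00058 over all genes tested, and without control replicate 3 the former was 0.03. With a fold change over 2 as a second threshold, 5.95% of all genes tested were called. None of the 10 pathway genes passed both thresholds by edgeR, DESeq2 or limma-voom, and none did at an unadjusted p under 0.05 and the same fold. Without the fold threshold, 7 of 10 had an unadjusted p under 0.05 by edgeR, against 54.2% of all genes tested. The CPM ranges of control and shMUC1 libraries were separate for 7 of the 10 genes, against 54.8% of all genes tested.

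**Figure D1:**
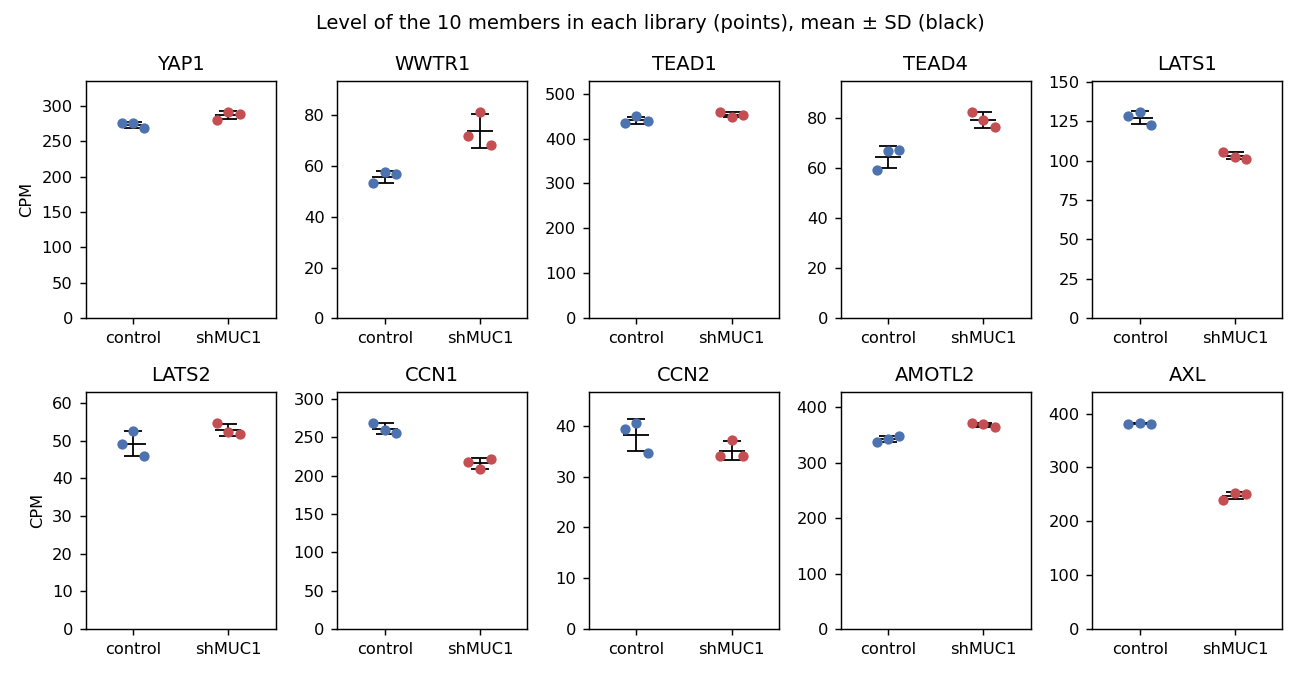
CPM of each pathway gene (vertical axes, each starting at 0) in the 3 control and 3 shMUC1 libraries, with points for libraries and black bars for the mean ± SD. AXL, CCN1 and LATS1 lie lower in all 3 shMUC1 libraries and WWTR1, TEAD4, AMOTL2 and YAP1 lie higher, while TEAD1, LATS2 and CCN2 overlap.

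Of the coactivators, WWTR1 passed the test and YAP1 did not. Coordinates are those of GENCODE release 29 on GRCh38. YAP1 (chr11:102110461-102233423, plus strand) was at 276, 276 and 269 CPM in control and 281, 291 and 288 CPM in shMUC1 libraries. Each shMUC1 library was above each control library, by a small margin. The log2 fold change of YAP1 was 0.07 (95% interval 0.0019 to 0.13), with an edgeR adjusted p of 0.083, so YAP1 did not pass the threshold. Without control replicate 3 it was 0.04. WWTR1 (chr3:149517235-149736714, minus strand) was at 53.2, 57.6 and 56.9 CPM in control and 71.8, 81.4 and 68.3 CPM in shMUC1 libraries. All 3 shMUC1 libraries were above the control libraries, and shMUC1 replicate 2 was the highest. WWTR1 rose by 0.40 on the log2 scale (SE 0.0566, edgeR adjusted p = 1.87e-07), or 1.32-fold, and 12.9% of tested genes rose at least as far. Within each library, the log2 ratio of WWTR1 to YAP1 counts was -2.29 ± 0.0726 in control and -1.96 ± 0.119 in shMUC1 cells (SD, n = 3 each). The difference of 0.33 gave p = 0.1 in a two-sided exact permutation test, and with 3 libraries in each group no smaller p is possible.

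Of the TEAD factors among the 10 genes, TEAD4 passed the test and TEAD1 did not. TEAD1 (chr11:12674591-12944483, plus strand), the most abundant of them, was at 434, 449 and 439 CPM in control and 459, 448 and 452 CPM in shMUC1 libraries. These ranges overlap, and the log2 fold change was 0.04 (95% interval -0.02 to 0.10; edgeR adjusted p = 0.3), and 0.02 without control replicate 3. TEAD4 (chr12:2959330-3040673, plus strand) was at 59.3, 66.8 and 67.3 CPM in control and 82.5, 79.1 and 76.3 CPM in shMUC1 libraries. The groups did not overlap, and TEAD4 rose by 0.30 on the log2 scale (SE 0.0518, edgeR adjusted p = 7.79e-06). The log2 ratio of TEAD4 to TEAD1 counts went from -2.78 ± 0.0855 to -2.51 ± 0.046 (SD, n = 3 each; two-sided exact permutation test, p = 0.1). Per kilobase of annotated exon, TEAD1 made up 50.8% ± 1.03 of the summed TEAD1 to TEAD4 level in control and 46.9% ± 0.68 in shMUC1 cells (SD, n = 3 each). TEAD4 made up 33.6% ± 1.3 and 37.2% ± 0.658, so TEAD1 and TEAD4 held most of the family level in both groups. TEAD3 rose (log2 fold change 0.36, SE 0.0846, edgeR adjusted p = 0.000527), and TEAD2 had a log2 fold change of 0.03 (edgeR adjusted p = 0.822).

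**Figure D2:**
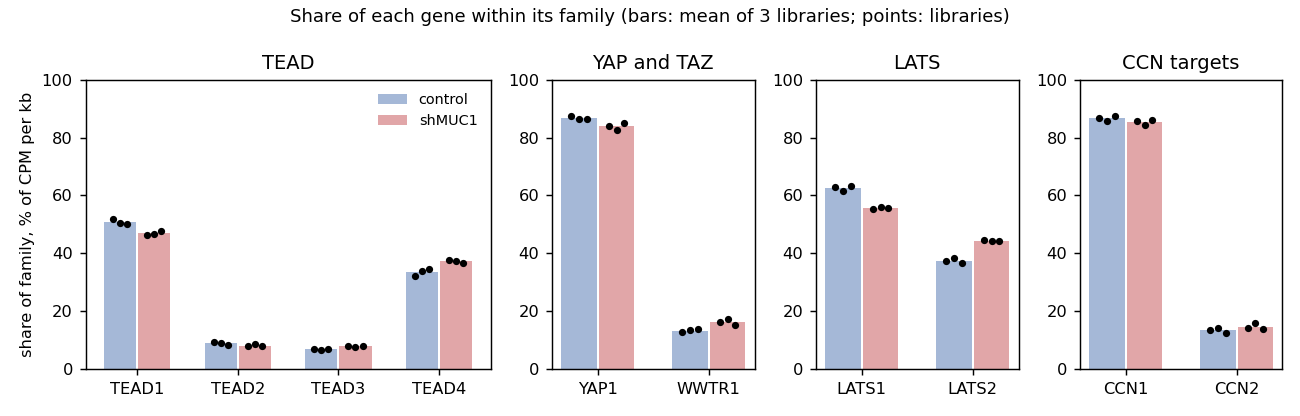
Share of each gene in the summed level of its family per kilobase of exon, in percent, with bars for the mean of 3 libraries and points for libraries. WWTR1, TEAD4 and LATS2 take a larger share of their families in shMUC1 than in control libraries, without overlap between groups, whereas the CCN2 shares overlap.

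Of the LATS kinases, which phosphorylate YAP and TAZ, LATS1 passed the test and LATS2 did not. LATS1 (chr6:149658153-149718256, minus strand) was at 128, 131 and 123 CPM in control and 106, 102 and 101 CPM in shMUC1 libraries. LATS1 was lower in every shMUC1 library and fell by 0.30 on the log2 scale (SE 0.0412, edgeR adjusted p = 1.05e-07). LATS2 (chr13:20973032-21061547, minus strand), which is both a kinase and a YAP/TAZ target, was at 49.1, 52.5 and 45.9 CPM in control and 54.8, 52.3 and 51.8 CPM in shMUC1 libraries. The groups overlapped through control replicate 2, and the log2 fold change was 0.11 (95% interval -0.0083 to 0.23; edgeR adjusted p = 0.119). Without that library, LATS2 was called, at 0.16 (edgeR adjusted p = 0.0372), and without control replicate 3 it was at 0.05 (edgeR adjusted p = 0.557). The log2 ratio of LATS2 to LATS1 counts showed the largest shift of the 4 ratios examined, from -1.37 ± 0.0504 to -0.96 ± 0.0116 (SD, n = 3 each). The difference of 0.41 gave p = 0.1 in the same exact test, and Benjamini-Hochberg adjustment over the 4 ratios gave 0.133. LATS2 made up 37.4% ± 0.819 of the summed LATS level per kilobase in control and 44.3% ± 0.199 in shMUC1 cells (SD, n = 3 each).

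Of the CCN target genes, which encode secreted matricellular proteins, CCN1 (chr1:85580761-85583962, plus strand) was at 269, 259 and 256 CPM in control and 217, 209 and 222 CPM in shMUC1 libraries. CCN1 was lower in every shMUC1 library and fell by 0.28 on the log2 scale (SE 0.035, edgeR adjusted p = 2.3e-08). CCN2 (chr6:131948176-131951373, minus strand) was at 39.4, 40.6 and 34.6 CPM in control and 34.1, 37.3 and 34.1 CPM in shMUC1 libraries. The ranges overlap through control replicate 3, and the log2 fold change was -0.12 (95% interval -0.26 to 0.02; edgeR adjusted p = 0.162). Without that library CCN2 was called, at -0.20 (edgeR adjusted p = 0.0214), and without control replicate 2 it was at -0.07 (edgeR adjusted p = 0.5). The log2 ratio of CCN2 to CCN1 counts differed by 0.16 between groups (two-sided exact permutation test, p = 0.2). Without shMUC1 replicate 2 the difference was 0.09, and without control replicate 3 it was 0.10.

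AMOTL2 (chr3:134355874-134375479, minus strand), an angiomotin-family scaffold that binds YAP and is itself a target, was at 337, 343 and 348 CPM in control and 372, 369 and 365 CPM in shMUC1 libraries. All shMUC1 libraries were above the control libraries, and AMOTL2 rose by 0.11 on the log2 scale (SE 0.0313, edgeR adjusted p = 0.00429), a change that 75.8% of tested genes exceeded in size. AXL (chr19:41219203-41261766, plus strand), a receptor tyrosine kinase, was at 381, 383 and 381 CPM in control and 240, 252 and 250 CPM in shMUC1 libraries. The control libraries lay within 2 CPM of each other, and every shMUC1 library was far below them. AXL fell by 0.63 on the log2 scale (SE 0.0325, edgeR adjusted p = 1.87e-18), to 0.648 of its control level. A larger change in either direction was seen in 16.1% of all genes tested.

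**Figure D3:**
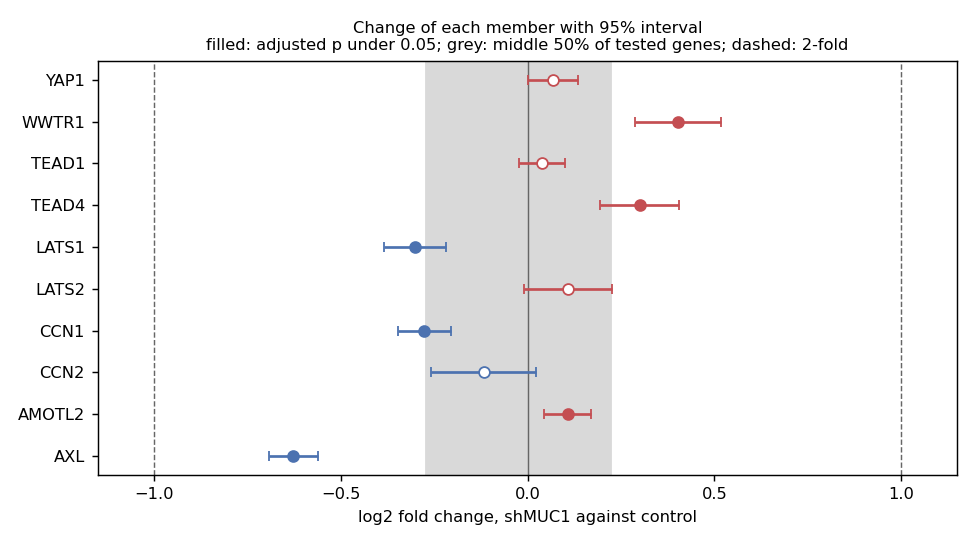
Log2 fold change of each pathway gene, shMUC1 against control (horizontal axis), with 95% intervals from edgeR, filled points for an adjusted p under 0.05 and a grey band for the middle 50% of tested genes (-0.27 to 0.22). AXL at -0.63 and WWTR1 at 0.40 lie farthest from 0, and no gene reaches the dashed lines at a 2-fold change.

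Levels were compared between genes per kilobase of annotated exon. In control cells CCN1 was the highest, at 106 ± 2.77 CPM per kilobase, followed by AXL at 74.1 ± 0.205 and AMOTL2 at 57.2 ± 0.94 (SD, n = 3 each). YAP1 at 43.4 ± 0.646 and TEAD1 at 42.9 ± 0.746 overlapped, as did CCN2 at 16.3 ± 1.37 and LATS1 at 14.7 ± 0.491 CPM per kilobase (SD, n = 3 each). TEAD4 lay between these pairs at 28.4 ± 1.96, and LATS2 at 8.81 ± 0.591 and WWTR1 at 6.64 ± 0.283 were lowest (SD, n = 3 each). TAZ transcripts were thus the scarcer coactivator, with 13.3% ± 0.573 of the summed YAP1 and WWTR1 level in control and 16.1% ± 1.12 in shMUC1 cells (SD, n = 3 each). In shMUC1 cells AXL, at 48.0 ± 1.31 CPM per kilobase (SD, n = 3), lay below AMOTL2, at 61.6 ± 0.633 (SD, n = 3), and LATS2 and WWTR1 overlapped. Annotated exon length counts every isoform, so these levels are approximate.

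**Figure D4:**
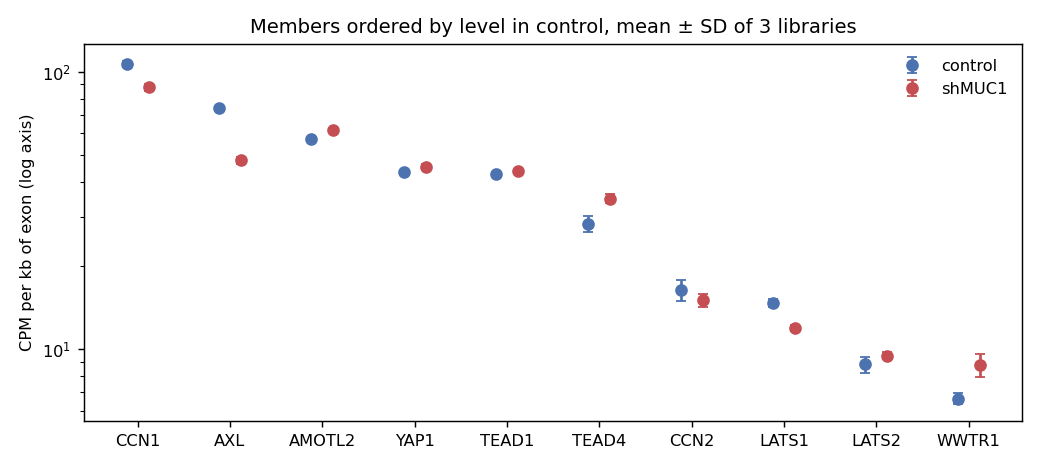
Mean ± SD of CPM per kilobase of exon (log axis) for the 10 genes in the order of their control level, n = 3 libraries in each group. CCN1, AXL and AMOTL2 are the highest in control, and AXL is the gene whose shMUC1 point drops farthest, from 74.1 to 48.0.

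The 7-base word ATCAGTA, searched in 3′ untranslated regions (3′ UTRs), came from an earlier scan of these same libraries for words tied to lower expression, so its relation to the fold changes is a description. It is in an annotated 3′ UTR of 12.8% of 13027 tested genes with such a region, and in 2 of the 10 pathway genes, LATS1 and WWTR1. The sites are shown, with the word in capitals, because one gene fell and the other rose. The LATS1 site is in 2 of 3 annotated coding transcripts, at chr6:149661529-149661555 on the minus strand, and the WWTR1 site is in 1 of 3, at chr3:149517909-149517935 on the minus strand (GRCh38).
LATS1: agccgtttaaATCAGTAtttagaaaaa
WWTR1: tactaaatcaATCAGTAaacatcatca
The log2 fold change was -0.30 for LATS1 and 0.40 for WWTR1. AXL and CCN1, which also fell, hold no copy of the word. MUC1, the targeted gene, holds it in 1 of 23 annotated coding transcripts (log2 fold change -0.84). Over all genes with an annotated 3′ UTR, the median log2 fold change was -0.12 with the word and 0.03 without it. Its part in any of these changes was not tested.

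The rest of the pathway was taken from 8 lists of 108 genes in all, of which 98 were tested. The lists were written from general knowledge, with earlier results of these data known. In them 37 genes rose, 36 fell and 25 were not called, with a median log2 fold change of -0.0098. Over all genes tested, 48.7% were called, a smaller share than in these lists, with 25.2% higher and 23.6% lower. Rises and falls were thus about even in the lists and in all genes. Each gene of the 8 lists named as rising or falling had an edgeR adjusted p of at most 0.0266. Among 26 tested genes of the Hippo kinase module, 10 rose and 7 fell (median 0.07). The largest changes there were rises of WWC1 (KIBRA, an upstream activator of LATS) by 0.78, of MINK1 (a MAP4K-family kinase) by 0.73 and of SAV1 (the scaffold of the MST kinases) by 0.61 on the log2 scale, and a fall of STK4 (MST1) by 0.60. Their edgeR adjusted p ran from 1.86e-17 for WWC1 to 1.56e-11 for SAV1. Members of a single kinase cascade thus moved both ways. Among the 5 tested genes of the list of TEAD factors outside the 10 and VGLL cofactors, TEAD3 rose, 3 fell and TEAD2 was not called. The genes that fell were the TEAD-binding cofactors VGLL2 (log2 fold change -1.56), VGLL3 (-0.25) and VGLL4 (-0.19), with edgeR adjusted p of 4.55e-06, 4.99e-07 and 0.00632. Without shMUC1 replicate 1, VGLL4 was not called (-0.14). VGLL2 had at most 87 counts in any library, and VGLL1 had 0 counts in all 6, and in the library with the lowest total a count of 0 allows a level of up to 0.161 CPM.

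Among 19 tested junction and polarity regulators, 5 rose and 9 fell (median -0.06). RASSF2 fell by 1.70 and RASSF5 rose by 1.07 on the log2 scale, and both encode proteins that bind MST kinases. WTIP, an Ajuba-family LIM protein, fell by 1.28, from 105 to 124 counts in control to 38 to 54 in shMUC1 libraries. PTPN14, a phosphatase that binds YAP and is also in the target signature, fell by 1.14 (SE 0.0363, edgeR adjusted p = 7.01e-25), with 8627, 9775 and 11233 counts in control and 5242, 4662 and 3472 in shMUC1 libraries.

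The target genes outside the 10 also moved both ways, as all genes tested did. Of 17 genes of a YAP/TAZ target signature, 4 rose, 8 fell and 5 were not called (median -0.03). NT5E (CD73) fell by 1.16, FOXF2, a forkhead factor, by 1.01 and PTPN14 by 1.14, whereas NUAK2, a kinase that feeds back on the pathway, rose by 1.09 on the log2 scale. With the 5 targets among the 10 pathway genes added, 5 of 22 rose and 10 fell (median -0.07). Of 16 further targets, 9 rose and 6 fell (median 0.20). AREG, an EGFR ligand, rose by 3.74 (SE 0.248, edgeR adjusted p = 2.09e-15), with 8, 23 and 11 counts in control and 202, 176 and 179 in shMUC1 libraries. TGM2, a transglutaminase, rose by 0.91 and TUFT1 by 0.74, while FSTL1, a secreted glycoprotein, fell by 0.88.

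**Figure D5:**
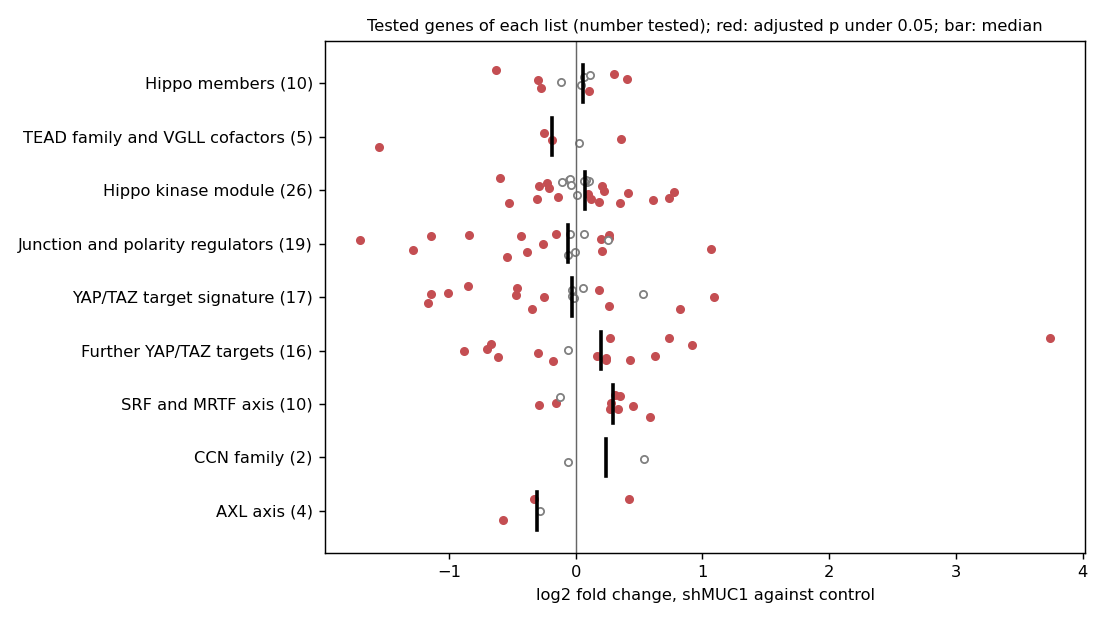
Log2 fold change of every tested gene in each pathway list (horizontal axis), shMUC1 against control, with the number tested in parentheses, red for an adjusted p under 0.05 and a black bar for the median. Called genes lie on both sides of 0 in 8 of the 9 lists, and AREG at 3.74 is the farthest point.

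SRF and its coactivators MRTFA and MRTFB share targets with YAP and TAZ, among them CCN1, CCN2 and genes of the cytoskeleton. Of 10 tested genes of this axis, 7 rose and 2 fell (median 0.29), against 25.2% higher and 23.6% lower of all genes tested. Those that fell were MRTFB (log2 fold change -0.15, edgeR adjusted p = 0.0131) and TPM1 (-0.29, edgeR adjusted p = 3.09e-07). MRTFA rose by 0.45, VCL (vinculin) by 0.35, CNN2 (calponin 2) by 0.33 and ACTA2 (smooth muscle actin) by 0.59 on the log2 scale, the last with at most 103 counts in any library. ACTA2 was not called without control replicate 3 (0.45), shMUC1 replicate 1 (0.53) or shMUC1 replicate 2 (0.57). Of the other CCN genes, CCN3 had a log2 fold change of -0.06 (edgeR adjusted p = 0.206) and CCN5 of 0.54 (edgeR adjusted p = 0.305), and CCN4 and CCN6 had at most 4 counts. CCN5 had at most 42 counts and ranged from 0.25 (without shMUC1 replicate 1) to 0.99 (without control replicate 3), with 0.29 without control replicate 2 and 0.88 without shMUC1 replicate 3. CCN3 ranged from -0.02 (without shMUC1 replicate 1) to -0.09 (without control replicate 3), with -0.03 without control replicate 2. In the AXL axis, TYRO3, a related receptor, fell by 0.57, and PROS1, a ligand of TYRO3 and MERTK, rose by 0.42 (edgeR adjusted p = 3.11e-08 and 7.73e-10). MERTK fell by 0.33 (edgeR adjusted p = 0.0266), and GAS6, the ligand of AXL, had a log2 fold change of -0.28 (edgeR adjusted p = 0.0807). MERTK was not called when control replicate 2, control replicate 3, shMUC1 replicate 1 or shMUC1 replicate 3 was left out (-0.34 to -0.29) or with no filter on low counts (-0.32), while GAS6 was called without control replicate 2 or shMUC1 replicate 1 (both -0.37).

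Other measures moved with the groups too. Mitochondrial genes took 3.35% to 4.17% of counts in control and 4.95% to 5.22% in shMUC1 libraries, without overlap. All 4 tested epithelial markers of 6 rose, with a summed level of 540 to 575 CPM in control and 1091 to 1132 CPM in shMUC1 libraries, while GRHL2 was at 0 counts in all 6 libraries and KRT19 at 0 in every shMUC1 library. Of 5 mesenchymal markers 4 fell, VIM by 0.78, and FN1 rose, and their sums overlapped at 1846 to 1878 and 1823 to 1868 CPM. The 5 immune markers summed to 0.41 to 0.616 CPM in control and 1.02 to 1.63 CPM in shMUC1 libraries, with CD3E at 0 throughout. PTPRC, the 1 tested, rose by 1.59 on the log2 scale. It had 2, 6 and 10 counts in control and 21, 24 and 10 in shMUC1 libraries. The 4 endothelial markers summed to 4.49 to 5.01 CPM in control and 1.34 to 2.06 CPM in shMUC1 libraries. Both tested ones fell, PECAM1 by 1.94 and KDR by 1.33, with at most 40 and 72 counts in any library. The 6 fibroblast and smooth muscle markers summed to 2.90 to 4.01 and 3.88 to 4.74 CPM, with DCN and LUM at 0 and ACTA2 higher of 2 tested. The part of these shifts in the changes of AXL, WWTR1 and the other pathway genes was not tested. Annotated genes on the opposite strand overlap exons of WWTR1 (9.45% of its exon length), YAP1 (9.98%), CCN2 (8.34%), LATS1 (4.72%) and AXL (1.30%), AMOTL2 shares 3.13% with the pseudogene RPL39P5 on its own strand, and the strand setting of the counting is not known.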

How the data were processed

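Total RNA of MDA-MB-436 cells was made into stranded mRNA libraries for RNA-seq. The values the authors deposited are unnormalized read counts by gene symbol, in a separate column for every library. The submitters' processing notes name STAR 2.7.9a, featureCounts and the build GRCh38.p7; the annotation release and the strand setting are not given in the sources used here.

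The groups were compared by edgeR's quasi-likelihood test (edgeR 4.0.16 in R 4.3.3; TMM scaling, filterByExpr, group as the only term, two-sided, Benjamini-Hochberg adjustment over 15355 genes). A gene was called at an adjusted p under 0.05. Standard errors (SE) came from the quasi-likelihood F statistic, and intervals are 95%. The script was tested on simulated data. Lengths, coordinates and 3′ UTRs came from GENCODE release 29, and promoter windows from RefSeq (GRCh38.p14).

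Alternatives were limma-voom (limma 3.58.1), DESeq2 1.42.0, scaling by library totals only or by DESeq2 size factors, testing every gene or those averaging at least 50 counts, a replicate block, halved counts, a fold change over 1.5, and each library left out. The members, lists and word were chosen with earlier results of these data known. From each list outside the members, the 4 genes with the largest change among called genes averaging at least 20 counts were named. Lists of 6 or fewer genes were named in full. MRTFB and TPM1 were named too, as the genes of the SRF axis that fell. A planned list is not reported here. Library totals ran from 18678307 to 27825546 counts, and intervals cover counting error and replicate spread of these 6 libraries only. Deviations from the group mean correlated at 0.00493, -0.0324 and -0.0382 between libraries of the same number, so no pairing by number was seen in these values. The labels do not say whether libraries of the same number were made together, and the correlations cannot settle it.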

Additional observations from a re-analysis of the deposited data

How the results depend on the processing

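YAP1, WWTR1, TEAD1, TEAD4, LATS1, CCN1, AMOTL2, AXL and MUC1 changed neither direction nor call in the 14 alternatives run. YAP1 ranged from 0.0437 to 0.087 and TEAD1 from 0.0167 to 0.0541, and the median of the 10 genes from 0.0341 to 0.0649 with 1 library left out. AXL ranged from -0.65 to -0.60, WWTR1 from 0.33 to 0.46 and LATS1 from -0.34 to -0.28 on the log2 scale. Leaving out 1 library at a time gave 0.0486 to 0.16 for LATS2, which was called without control replicate 2 (0.16), and -0.20 to -0.0687 for CCN2, which was called without control replicate 3 (-0.20). TEAD2 reversed without control replicate 3 (-0.0182) and without shMUC1 replicate 2 (-0.00493), with a range of -0.0182 to 0.0624 over libraries left out. The calls of MERTK, ACTA2 and VGLL4 were lost without some single libraries, and GAS6 was called without control replicate 2 or without shMUC1 replicate 1. The cause was not tested.

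A fold change over 1.5 called 1 of the 10 pathway genes (AXL). It called 846 higher and 1280 lower genes in all, against 339 and 575 at over 2. Testing only genes averaging at least 50 counts gave 177 and 275 at over 2, and the reason was not tested. List medians changed as follows. Those given for scaling, filters and halved counts moved by more than the replicate spread. With 1 library left out, the kinase module did so only without control replicate 2 or control replicate 3. The junction list did so only without control replicate 1, and the signature only without shMUC1 replicate 2. With library totals only, the TEAD and VGLL median was -0.21 and that of further targets 0.18. With a mean of at least 50 counts, they were -0.21 and 0.18. With no low-count filter, further targets gave 0.21, and with counts halved 0.20. Leaving out 1 library gave medians from -0.22 to -0.14 for TEAD and VGLL and from 0.18 to 0.22 for further targets. The kinase module ran from 0.0164 to 0.087, lowest without control replicate 2, with 0.022 without control replicate 3 and 0.0415 without shMUC1 replicate 2. The junction list ran from -0.12 to -0.0316, lowest without control replicate 1, with -0.115 without control replicate 2 and highest without control replicate 3. The signature ran from -0.0861 to -0.0016, lowest without shMUC1 replicate 2 and highest without shMUC1 replicate 3. As a ratio to its small main value of -0.03, the signature moved by over 1.5 times with each library left out. It moved beyond the replicate spread only without shMUC1 replicate 2.

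With a replicate block, 3 of the 10 pathway genes were higher and 3 lower, AXL was at -0.63 and WWTR1 at 0.40, the ratios kept their values (0.33 for WWTR1 to YAP1, with an exact sign-flip permutation p of 0.25, the smallest 3 pairs allow), and the call of no pathway gene changed. Of values from 1 to 20 counts, 69.6% in control and 70.2% in shMUC1 libraries were even, and the reason was not tested. Low counts limit CCN5 (8 to 42 counts), VGLL2, ACTA2, AREG, PTPRC, PECAM1 and KDR.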

Other observations

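NF2, which encodes the Hippo activator merlin, and CRB3, a polarity protein that acts upstream of the pathway, were chosen here after their values were seen. NF2 had 0, 7 and 2 counts in control and 2, 2 and 0 in shMUC1 libraries, too few to pass the filter. CRB3 had 0 counts in all 6 libraries.

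The tested genes of both target lists were split by whether a RefSeq promoter window held GGAATG on either strand. The median log2 fold change was 0.10 over 8 genes with a copy, 0.17 over 15 genes without one and -0.27 over 10 genes with no window in the table. The medians are a description, and the difference was not tested.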
